A study of Arabidopsis thaliana with 12 samples.

Results

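The genes described here are 30 Arabidopsis thaliana genes of metabolism and its regulation. The authors listed splicing events in them for the wild type under chilling and not for mutants of SmEb under chilling. SmEb encodes an Sm core protein, one of the proteins that form a ring around the small nuclear RNAs of the spliceosome. The genes are the union of the loci that the authors' deposited gene ontology table of SmEb-dependent genes lists under 5 terms, and they make up 30 of the 394 genes in the authors' SmEb-dependent list and 30 of the 1502 genes in any of the 3 event tables. They were therefore selected on measured values, namely the call in wild type and its absence in the mutants, and these are given as a description without a test.

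RNA was sequenced from whole seedlings of 3 genotypes, the wild type Col-0 and the mutants smeb-1 and smeb-2, 12 days old and grown on MS medium. Chilling meant 24 h at 4 °C, and each genotype also has a control at 22 °C, with 2 libraries per group and 12 libraries in all. The labels give the control as 22 °C for 24 h, and the treatment protocol gives it as 0 h at 4 °C. They do not say whether the replicates were separate cultures, what lesions the alleles carry, or how the 2 alleles were combined in the tables headed smeb. The event tables hold a gene, a position, a kind of event and a false discovery rate (FDR) for each splicing event, with no value per library and no size or direction, so an event is called or listed here, never higher or lower. The depth is unknown, the tables do not state which groups were set against each other, and without expression values the labelled tissue could not be checked against markers. In whole seedlings, a change in splicing within cells and a change in the mix of cells cannot be told apart.

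Splicing removes introns by joining a 5′ splice site, usually GT at the start of the intron, to a 3′ splice site, usually AG at its end. In an alternative 5′ or 3′ splice site event, a pair of sites compete and a stretch of RNA between them is kept or lost. In a retained intron the whole intron stays in, and a cassette exon is included or skipped. The metabolic enzymes concerned make or break down amino acids, nucleotides, the cofactors built from them, phospholipids and plastid isoprenoids, many of them housed in plastids, mitochondria or peroxisomes.

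In the authors' deposited table, cellular amino acid metabolism holds 14 of the 318 annotated SmEb-dependent genes (4.40%), against 380 of 21859 background genes (1.74%), with a p-value of 0.00144 and an adjusted p of 0.152. Organophosphate biosynthesis holds 12 genes in the authors' deposited table (adjusted p 0.22), nucleoside phosphate biosynthesis 9 (0.152), regulation of small molecule metabolism 7 (0.174) and cellular ketone metabolism 7 (0.232). None of the 16 terms in the authors' deposited table has an adjusted p under 0.05, the lowest being 0.133. None of the 5 terms is in the table of SmEb-independent genes. That list holds 352 genes, whereas 746 genes were listed in both genotypes, so the 2 sets are not the same. The smeb chilling table holds 1097 genes, so 352 is close to the number listed there and not in Col-0. In the 4 gene lists described below, the SmEb-independent list held 2, 3, 2 and 0 loci, as many as were listed in smeb alone. By these counts it matches the genes listed in smeb alone. The absence of the 5 terms is therefore not read as a contrast with splicing shared by both genotypes. The terms overlap heavily: all 9 nucleoside phosphate genes are among the organophosphate genes, and the small molecule and ketone terms share 6 of their genes. Of the members, 14 stand in 1 term, 13 in 2 and 3 in 3, and 11 genes are held by the amino acid term alone.

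Several members are regulators rather than enzymes. LSD1, a zinc finger protein known as a brake on cell death, stands in the amino acid, small molecule and ketone terms. The basic helix-loop-helix protein AT1G61660 stands in the same 3 terms. The protein of AT4G13040, annotated as an integrase-type DNA-binding protein, Tudor2, an RNA-binding Tudor-SN protein, and AT2G18750, a calmodulin-binding protein, stand in the small molecule and ketone terms.

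The 30 genes had 31 events in the Col-0 chilling table, 1 each in 29 genes and 2 in AT4G13040. Over the whole table, a total of 1339 events were listed of an estimated 9710 tested (13.8%), and 1132 of the 24197 annotated genes with an intron were listed (4.68%). The SmEb-dependent list holds 390 of those genes (1.61%). The rule used this contrast, so nothing is read from these counts.

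The FDR is one of the values that chose the members, so it is given as a description only. The members' median FDR in the authors' deposited table was 0.0218, against 0.00837 for the events of the other SmEb-dependent genes, 1.5e-04 for those of genes listed in both genotypes and 0.00126 over the whole table. An FDR under 0.01 in the authors' deposited table was held by 10 of the 31 events (32.3%), against 206 (53.1%) of the other SmEb-dependent events and 729 (79.3%) of the events of genes listed in both. In the authors' deposited table none had an FDR of 0, which 13 (3.35%) of the other SmEb-dependent events and 234 (25.5%) of the events of genes listed in both had. The highest FDR of a member in the authors' deposited table was 0.04897, the table ends at 0.04997, and 4 events lie between. Events beyond the end of the table are not listed, so no values just outside it can be given.

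**Figure D1:**
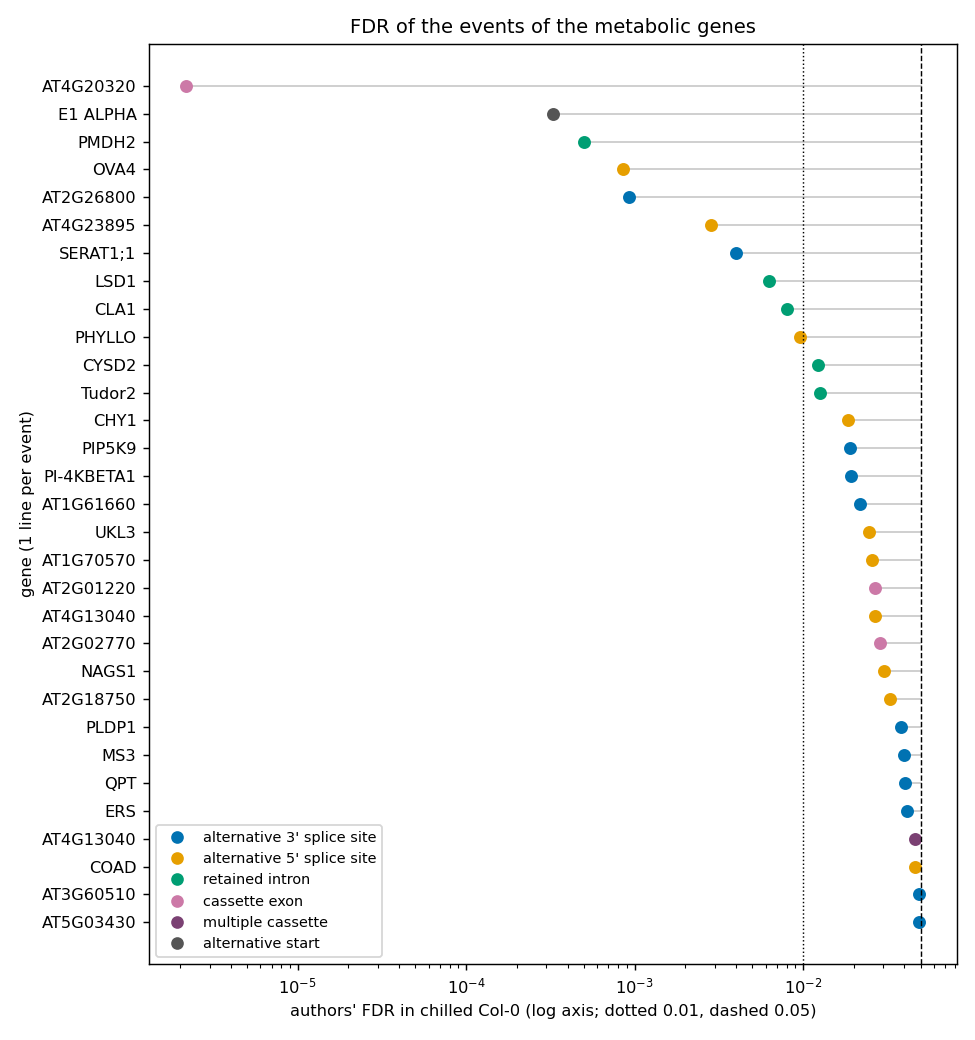
Authors' FDR of each of the 31 events in the Col-0 chilling table, 1 line per event, on a log axis from low (left) to high (right), coloured by kind of event. A single event, in AT4G20320, lies below 1e-04, and 21 of the 31 lie between the dotted line at 0.01 and the dashed line at 0.05.

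Alternative splice sites made up most of the events. There were 11 alternative 3′ splice sites (35.5%), 10 alternative 5′ splice sites (32.3%), 5 retained introns (16.1%), 3 cassette exons (9.68%), 1 multiple cassette and 1 alternative start. Together the alternative sites were 21 of 31 events (67.7%), against 226 of 388 (58.2%) in the other SmEb-dependent genes and 407 of 919 (44.3%) in the genes listed in both genotypes. Cassette exons were 58 (14.9%) and 223 (24.3%) of the events in those sets. Among the 5 member events with an FDR under 0.001 in the authors' deposited table, 2 (40.0%) were alternative sites.

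**Figure D2:**
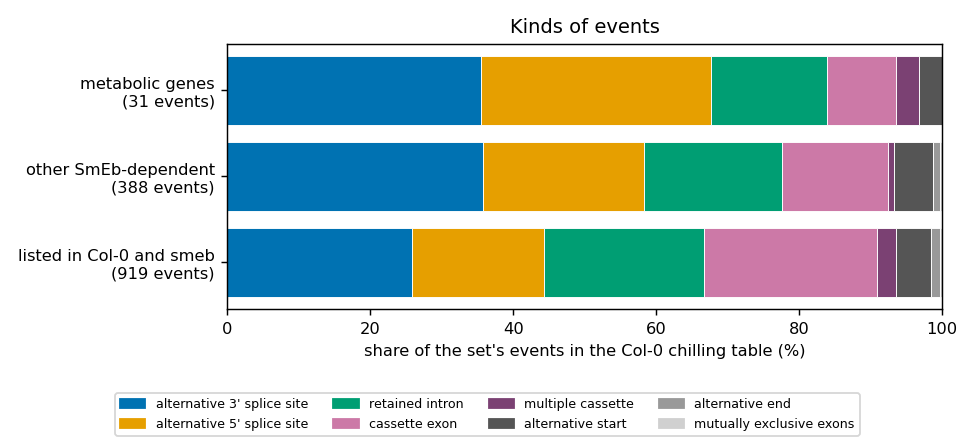
Share of each kind of event, in percent of the set's events in the Col-0 chilling table, for the metabolic genes (31 events), the other SmEb-dependent genes (388) and the genes listed in both genotypes (919). Alternative 3′ and 5′ sites fill 67.7%, 58.2% and 44.3% of the bars.

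Cysteine synthesis was represented by both of its steps. SERAT1;1 (AT5G56760) is a serine acetyltransferase, which makes the O-acetylserine that receives sulfide. Its only intron had an alternative 3′ splice site (FDR 0.00402, the authors' deposited table), with 70 nt between the sites. The form that keeps the stretch stops within it, after 152 codons in place of 312, and no exon junction follows that stop. CYSD2 (AT5G28020) is a cysteine synthase that joins sulfide to O-acetylserine. It had an annotated intron 1 of 300 nt in the 5′ untranslated region (UTR) called as retained (FDR 0.0122, the authors' deposited table). Other annotated transcripts have a longer intron 1, of 365, 371 or 378 nt, that contains this stretch, and another keeps it in exon 1. MS3 (AT5G20980), a methionine synthase, was listed with an alternative 3′ splice site of 46 nt in its 3′ UTR (FDR 0.0398, the authors' deposited table). One of the sites reads AG and the other AC, and the interval also overlaps AT5G20970 on the other strand, so the gene of this event is uncertain. The sites of the cysteine genes are shown because the RNA between them carries the stop in one and untranslated leader in the other, with the splice-site dinucleotides in capitals. Sequences here and in the following paragraphs are from the RefSeq assembly TAIR10.1, 5′ to 3′ on the strand of the gene, at chr5:22961983-22962072 (minus strand) for SERAT1;1 and at chr5:10028474-10028495 and chr5:10028176-10028197 (minus strand) for the ends of the CYSD2 intron.
SERAT1;1 pair of 3′ sites: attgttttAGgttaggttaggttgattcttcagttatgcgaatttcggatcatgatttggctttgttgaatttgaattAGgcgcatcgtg
CYSD2 intron start: cttgattttgGTatcaaattta
CYSD2 intron end: atttttcaatAGtttcagaaaa

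Aminoacyl-tRNA synthetases, which charge transfer RNAs for protein synthesis, gave 2 members, both with an early stop in the form that keeps the stretch. OVA4 (AT2G25840), a tryptophanyl-tRNA synthetase of the organelles, had an alternative 5′ splice site in intron 5 of 12 (FDR 8.5e-04, the authors' deposited table), the lowest of the amino acid term. Use of the downstream GT keeps 90 nt, a multiple of 3, but the reading frame ends inside them, after 205 codons in place of 412. ERS (AT5G64050), a glutamyl-tRNA synthetase, had an alternative 3′ splice site of 10 nt in intron 4 of 12 (FDR 0.0416, the authors' deposited table), with 242 codons when the 10 nt are kept and 570 when they are not. The OVA4 stretch is shown for the stop that it brings in although its length keeps the frame, with both GT donors in capitals (chr2:11023181-11023290, plus strand).
OVA4 pair of 5′ sites: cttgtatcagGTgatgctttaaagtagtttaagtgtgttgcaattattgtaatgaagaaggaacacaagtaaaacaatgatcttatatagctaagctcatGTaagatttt

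Breakdown of branched-chain amino acids was represented by CHY1 and AT2G26800. AT3G60510 is grouped with CHY1 by family only, and its role was not tested. CHY1 (AT5G65940), the peroxisomal beta-hydroxyisobutyryl-CoA hydrolase of valine breakdown, had an alternative 5′ splice site in intron 9 of 14 (FDR 0.0186, the authors' deposited table). Its stretch of 30 nt likewise holds an in-frame stop, giving 194 codons in place of 378. AT3G60510 is annotated as an ATP-dependent caseinolytic (Clp) protease/crotonase family protein, and CHY1 belongs to the crotonase family. AT3G60510 had an alternative 3′ splice site of 23 nt in intron 10 of 12, both sites annotated (FDR 0.0490, the authors' deposited table). On the longest transcript, the form with the 23 nt ends after 342 codons and the form without after 426, and the annotated transcript that keeps the 23 nt has 317 codons. AT2G26800, which encodes hydroxymethylglutaryl-CoA lyase of leucine breakdown and is annotated as an aldolase superfamily protein, had an alternative 3′ splice site of 111 nt at the end of intron 1 (FDR 9.2e-04, the authors' deposited table). Both sites are annotated, and the stretch between them holds the start codon of the longest annotated form (468 codons), so the choice of site sets whether that start codon is in the RNA. An annotated transcript without the stretch starts downstream and has 433 codons. The sites of CHY1 (chr5:26378038-26378087, minus strand) and AT2G26800 (chr2:11432304-11432325 and chr2:11432193-11432214, minus strand) show a gain of a stop and a loss of a start, with splice-site dinucleotides in capitals.
CHY1 pair of 5′ sites: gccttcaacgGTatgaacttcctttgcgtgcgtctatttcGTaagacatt
AT2G26800 upstream 3′ site: cattttctccAGagaactcaaa
AT2G26800 downstream 3′ site: cttctattccAGtctcacattt

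The other genes of the amino acid term differ in role. NAGS1 (AT2G22910), N-acetylglutamate synthase, which starts arginine synthesis, had an alternative 5′ splice site of 17 nt in intron 4 of 8 (FDR 0.0302, the authors' deposited table), with 280 codons when the stretch is kept and 609 when it is not. PIP5K9 (AT3G09920) is a phosphatidylinositol monophosphate 5-kinase of membrane signalling. Its event was an alternative 3′ splice site of 56 nt in the 5′ UTR, both sites annotated (FDR 0.0190, the authors' deposited table). PHYLLO (AT1G68890), a fused enzyme of phylloquinone synthesis in plastids, stands in the ketone term too. It had an alternative 5′ splice site in intron 11 of 27 (FDR 0.00957, the authors' deposited table), described with the shortest stretches. AT2G02770, annotated as a phosphopantetheinyl transferase superfamily protein, was listed with a cassette exon of 55 nt (FDR 0.0286, the authors' deposited table). That exon lies 2271 nt outside the gene, within an intron of AT2G02765, and reads AC before it and GT after it, so its gene is uncertain. The PIP5K9 sites (chr3:3043859-3043880 and chr3:3043803-3043824, minus strand) are shown because both are annotated and leave the protein as it is, with AG in capitals.
PIP5K9 upstream 3′ site: ttctgattctAGattcatacat
PIP5K9 downstream 3′ site: ttcgttgaatAGctgagcacat

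Pyrimidine nucleotide synthesis gave the member with the lowest FDR. AT4G20320, a CTP synthase, which makes CTP from UTP, had a cassette exon of 50 nt at chromosome 4, 10974579 to 10974628 (FDR 2.2e-06, the authors' deposited table). The exon lies in intron 1 of 21 in the transcript with the longest coding sequence, in the 5′ UTR, and inside exon 1 of 2 other annotated transcripts. It is not annotated as an exon of its own and reads TC before it, where a cassette exon has AG, and GT after it. UKL3 (AT1G55810), a uridine kinase-like enzyme of pyrimidine salvage, had an alternative 5′ splice site of 121 nt in the 5′ UTR (FDR 0.0248, the authors' deposited table). Both UKL3 donors are annotated, and the upstream one is a GC, a rarer class of 5′ splice site. AT4G23895, annotated as a pleckstrin homology domain protein, had an alternative 5′ splice site of 11 nt in the 5′ UTR, both donors annotated (FDR 0.00286, the authors' deposited table). In none of these 3 genes does the event touch the reading frame of the transcript with the longest coding sequence. The donors of UKL3 (chr1:20860701-20860722 and chr1:20860822-20860843, plus strand) and AT4G23895 (chr4:12422171-12422199, plus strand) are shown to set the GC donor beside GT donors, in capitals.
UKL3 upstream 5′ site: agtttaacagGCaatgctcgtg
UKL3 downstream 5′ site: ttcttttttcGTgagtttttat
AT4G23895 pair of 5′ sites: ttcgatcagGTaaaaacaagGTctcgatc

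The other 6 genes of the nucleoside phosphate term include enzymes of NAD and coenzyme A synthesis. QPT (AT2G01350), quinolinate phosphoribosyltransferase of NAD synthesis, had an alternative 3′ splice site of 5 nt in intron 5 of 8 (FDR 0.0404, the authors' deposited table), with 187 codons when the 5 nt are kept and 348 when they are not. COAD (AT2G18250), the phosphopantetheine adenylyltransferase of coenzyme A synthesis, had an alternative 5′ splice site of 5 nt in intron 4 of 5 (FDR 0.0461, the authors' deposited table), with 176 codons in the annotated form that keeps them and 120 without. AT5G03430, annotated as a phosphoadenosine phosphosulfate reductase family protein, had an alternative 3′ splice site of 5 nt in intron 8 of 16 (FDR 0.0490, the authors' deposited table), with 274 codons when they are kept and 497 when they are not. PHYLLO completes the set of 5 nt pairs, with 480 codons when the 5 nt are kept and 1715 when they are not. AT2G01220, a nucleotidylyl transferase superfamily protein, had its annotated exon 9 of 12 (110 nt) called as a cassette (FDR 0.0267, the authors' deposited table), and without it the frame ends after 253 codons in place of 388. AT1G70570, annotated as a putative anthranilate phosphoribosyltransferase, the kind of enzyme that takes part in tryptophan synthesis, had an alternative 5′ splice site of 33 nt in intron 4 of 9 (FDR 0.0256, the authors' deposited table). The 33 nt hold an in-frame stop, giving 376 codons in place of 632. E1 ALPHA (AT1G59900), the E1 alpha subunit of pyruvate dehydrogenase, which feeds acetyl-CoA into the citric acid cycle, had the only alternative start among the members (FDR 3.3e-04, the authors' deposited table). Its 81 nt (chromosome 1, 22052852 to 22052932) lie inside intron 3 of 400 nt, downstream of the annotated start codon.

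The 4 pairs of sites that lie 5 nt apart are given side by side, with both dinucleotides in capitals: QPT at chr2:166058-166082 (minus strand), AT5G03430 at chr5:850853-850877 (minus strand), PHYLLO at chr1:25900364-25900388 (plus strand) and COAD at chr2:7941093-7941117 (plus strand). The shortest distance listed anywhere in the Col-0 table is 5 nt.
QPT pair of 3′ sites: tcttgcttAGcttAGgtactgattg
AT5G03430 pair of 3′ sites: tgttccatAGctcAGgtctggcact
PHYLLO pair of 5′ sites: aataaatcaaGTaagGTcgagataa
COAD pair of 5′ sites: agctattgttGTcagGTtttcacca
Pairs 5 nt apart were 4 of the 21 alternative sites (19.0%), against 21 (9.29%) in the other SmEb-dependent genes and 34 (8.35%) in the genes listed in both genotypes.

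Members outside the amino acid term also act on phospholipids and isoprenoids. PI-4KBETA1 (AT5G64070), a phosphatidylinositol 4-kinase of the secretory pathway, had an alternative 3′ splice site of 79 nt in intron 3 of 15 (FDR 0.0192, the authors' deposited table). Here the annotated form keeps the stretch and has 1121 codons, while the form that skips it ends after 605. PLDP1 (AT3G16785), a phospholipase D, which releases phosphatidic acid from phospholipids, had an alternative 3′ splice site of 25 nt in intron 2 of 18 (FDR 0.0381, the authors' deposited table), with 1139 codons in the annotated form and 115 without the 25 nt. CLA1 (AT4G15560), deoxyxylulose-5-phosphate synthase, the entry enzyme of isoprenoid synthesis in plastids, was listed with a retained intron of 230 nt (FDR 0.00802, the authors' deposited table). No intron is annotated there: the 230 nt lie inside exon 1, begin with GT, end with AG and hold the start codon of the protein of 717 codons. The PI-4KBETA1 stretch (chr5:25641151-25641249, minus strand) is shown because skipping it shortens the predicted protein. The ends of the CLA1 interval (chr4:8884073-8884094 and chr4:8884301-8884322, plus strand) are shown because they read GT and AG where no intron is annotated, with dinucleotides in capitals throughout.
PI-4KBETA1 pair of 3′ sites: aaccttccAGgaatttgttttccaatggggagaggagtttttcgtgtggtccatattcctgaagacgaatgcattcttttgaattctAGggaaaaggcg
CLA1 interval start: ggattcgaaaGTgcgttttatt
CLA1 interval end: gtcttcttctAGatctttggtt

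PMDH2 (AT5G09660), a peroxisomal malate dehydrogenase that recycles the NADH of fatty acid oxidation, had a retained intron of 73 nt near the end of its coding span (FDR 5.0e-04, the authors' deposited table). Both forms are annotated as transcripts. The form that keeps the intron has 363 codons and the form that removes it 354, so the event exchanges the end of the protein without an early stop. PMDH2 was the only retained intron of the members within a coding span, and its whole intron is shown with 10 nt on each side and the terminal GT and AG in capitals (chr5:2993895-2993987, minus strand).
PMDH2 intron: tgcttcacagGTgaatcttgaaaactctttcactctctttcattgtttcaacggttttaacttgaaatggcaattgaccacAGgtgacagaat

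In 3 of the 5 regulators the event lay in the 5′ UTR of the transcript with the longest coding sequence. LSD1 (AT4G20380) had its intron 2 of 9 (125 nt, in the 5′ UTR of the longest form, of 210 codons) called as retained (FDR 0.00628, the authors' deposited table). The 125 nt hold the start codon of other annotated LSD1 transcripts, of 189 codons, among them a transcript that keeps the stretch in an exon. Tudor2 (AT5G61780) was listed with a retained intron of 121 nt (FDR 0.0127, the authors' deposited table). Like that of CLA1 it lies inside an annotated exon 1, but wholly in the 5′ UTR. AT2G18750 had an alternative 5′ splice site of 116 nt in intron 1, in the 5′ UTR, both donors annotated (FDR 0.0330, the authors' deposited table). AT1G61660 had a pair of annotated 3′ splice sites 9 nt apart in intron 2 of 6 (FDR 0.0218, the authors' deposited table), which adds 3 codons to a protein of 390 and leaves the frame open. AT4G13040, the member with 2 events, had an alternative 5′ splice site of 53 nt in intron 4 of 6 at an FDR of 0.0269 and a multiple cassette of 71 nt that equals its exon 2 at an FDR of 0.0460, both in the authors' deposited table. Read from the start codon of the longest annotated form, of 246 codons, its form without the 53 nt ends after 106 codons. Annotated transcripts that lack the 53 nt use a start codon further downstream and have 167 or 170 codons. The 71 nt of the multiple cassette hold the start codon of annotated forms of 223 and 226 codons. Shown is the only coding event of the members whose length keeps the frame open, AT1G61660 (chr1:22755205-22755233, minus strand). Also shown are the ends of the annotated LSD1 intron (chr4:11004887-11004908 and chr4:11005010-11005031, plus strand) and of the Tudor2 interval (chr5:24821342-24821363 and chr5:24821461-24821482, plus strand), where no intron is annotated, with dinucleotides in capitals throughout.
AT1G61660 pair of 3′ sites: tgttgagaAGaatctgaAGacaagagctc
LSD1 intron start: tgttaatcagGTgagtttttag
LSD1 intron end: ggatgaaagtAGcagatatgca
Tudor2 interval start: ctttaaatctGTctctttctct
Tudor2 interval end: tttcttcatcAGatctagtttt

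**Figure D3:**
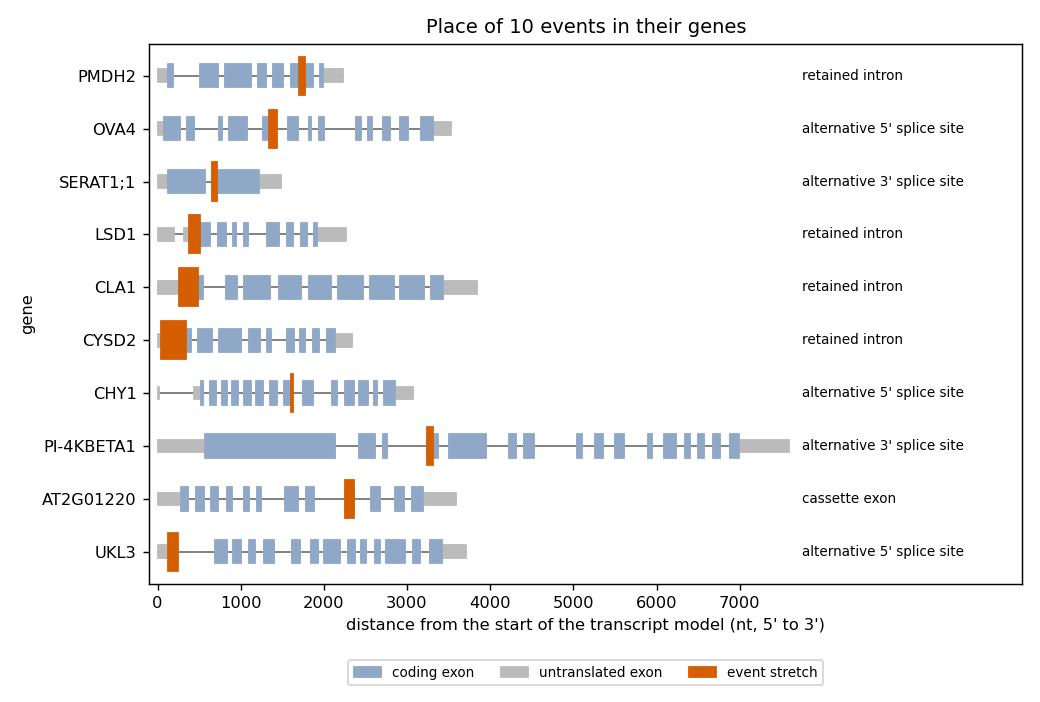
Transcript models of 10 members, drawn to scale in nt from the start of the transcript, with coding exons, untranslated exons, introns (thin lines) and the event's stretch. The stretches of LSD1, CYSD2 and UKL3 lie at the 5′ end in or next to untranslated exons. That of CLA1 also lies at the 5′ end but spans the start codon, and those of the other 6 genes lie within the coding span.

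Across the members, the splice sites were those that the kind of event asks for in 25 of the 29 events that could be read (86.2%), against 88.6% in the other SmEb-dependent genes and 88.0% in the genes listed in both genotypes. The exceptions were AT4G20320, UKL3, MS3 and AT2G02770. No member event had splice sites that fit its kind only on the opposite strand, as 44 events of the Col-0 table did. Of the 5 retained introns, those of PMDH2, LSD1 and CYSD2 are annotated (60%), against 59 of 75 (78.7%) and 154 of 206 (74.8%). Of the 21 alternative sites, 8 pairs (38.1%) have both sites annotated and the other 13 have 1, against 40.7% and 39.3% with both. The stretch between them ran from 5 to 121 nt with a median of 30 nt, against medians of 22.5 and 29 nt.

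Of the 28 events that could be placed on a coding transcript, 17 (60.7%) lay in the coding span and 8 (28.6%) in the 5′ UTR. Those in the 5′ UTR were AT4G20320, AT4G23895, LSD1, CYSD2, Tudor2, PIP5K9, UKL3 and AT2G18750. The MS3 event lay in the 3′ UTR, and those of AT2G26800 and CLA1 spanned the start codon. These places are those on the transcript with the longest coding sequence. On other annotated transcripts the stretch of LSD1 holds a start codon, and so does the multiple cassette of AT4G13040, which was not placed. The shares in the 5′ UTR were 26.3% in the other SmEb-dependent genes and 22.7% in the genes listed in both genotypes.

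Within the coding span, 13 of the 17 events shifted the frame and 4 (23.5%) had a length that is a multiple of 3, against 38.6% in the other SmEb-dependent genes and 36.6% in the genes listed in both genotypes. Of those 4, OVA4, CHY1 and AT1G70570 held an in-frame stop and AT1G61660 did not. A stop was counted as early where it lies more than 50 nt before the last exon junction, the usual mark of a transcript open to nonsense-mediated decay. By that count, 13 of the 17 events (76.5%) had an early stop in 1 of their forms, against 132 of 210 (62.9%) and 325 of 511 (63.6%). In 9 of the 13 the stop was in the form that keeps the stretch, and in PI-4KBETA1, AT2G01220, AT4G13040 and PLDP1 it was in the form that lacks it. No early stop arose in SERAT1;1, PMDH2, AT1G61660 or COAD. Among the events with an FDR under 0.01 in the authors' deposited table, the count was 2 of 4 (50%). The count reads both forms from the start codon of the longest annotated form, and annotated transcripts that start elsewhere, as in AT4G13040, were not part of it. Whether a predicted form was present at all, in which amount and at which temperature, is not in the tables.

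**Figure D4:**
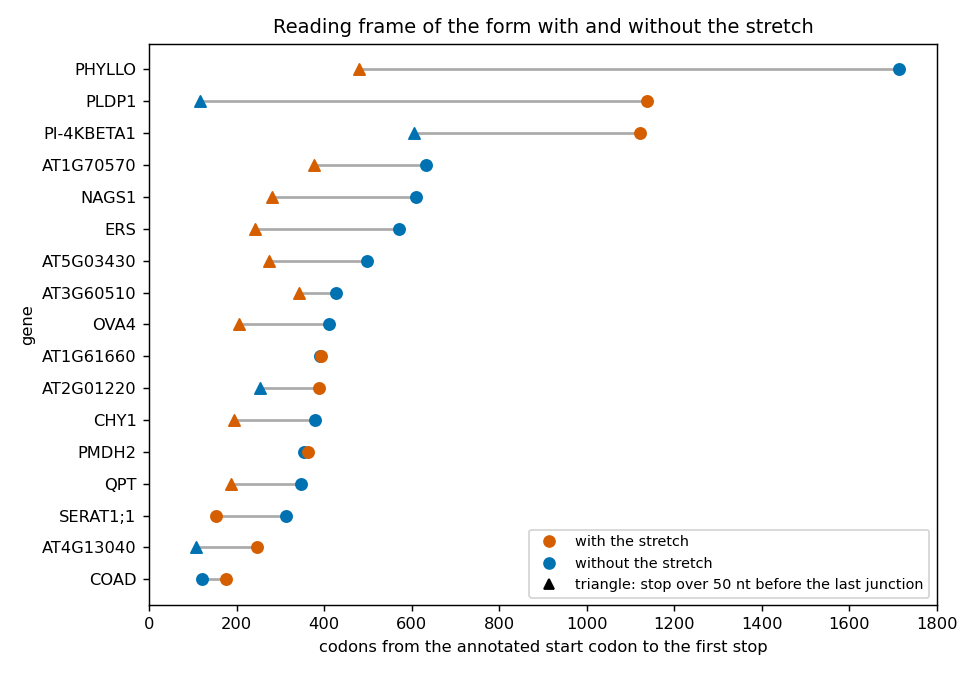
Codons from the annotated start codon to the first stop in the form with and without the event's stretch, for the 17 events in the coding span, 1 line per gene. Triangles mark a stop over 50 nt before the last junction, as found in 13 genes; PMDH2 (363 and 354 codons) and AT1G61660 (393 and 390) lie almost on one point.

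The member genes had many introns. Their median was 12 distinct annotated introns (range 1 to 28), against 8 in the other SmEb-dependent genes, 9 in the genes listed in both genotypes and 4 over the 22245 protein-coding genes with an intron. SERAT1;1 had 1 and PHYLLO 28. The median gene length was 3582 nt, against 3008, 3182 and 2342 nt. The median number of annotated transcripts was 3 in the members and in both listed sets, and 8 of the 30 members (26.7%) have a single annotated transcript, against 14.6% of the other SmEb-dependent genes, 15.7% of the genes listed in both genotypes and 52.5% of the protein-coding genes with an intron. The part of intron number in whether a gene is listed was not tested.

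None of the 30 members was listed in the smeb chilling table or in the smeb table at 22 °C, and no event of any other gene in those tables overlaps a member gene. The first of these counts is fixed by the rule, since the 394 SmEb-dependent genes are the Col-0 genes that the smeb chilling table lacks. Those tables listed 1359 of an estimated 10308 tested events (13.2%) under chilling and 34 of 10657 (0.319%) at 22 °C. In genes with an annotated intron, that is 1093 (4.52%) and 27 (0.112%). Absence from the smeb table does not show that the events differ between the genotypes, and that difference was not tested in the tables. The smeb chilling table also has fewer events than the rank of its last one, 1693, so some events within its FDR limit may be missing from it, whereas in Col-0 1339 events stand against a last rank of 1346.

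Most other well-known genes of the same pathways were listed in no event table. In 4 lists with 200 loci in all, chosen by symbol for amino acid, nucleotide, central carbon and ketone or quinone metabolism, 10 genes (5%) were listed in Col-0 under chilling, 15 (7.5%) in smeb under chilling and 0 in smeb at 22 °C. Over the 186 of these loci with an annotated intron, the shares are 5.38% in Col-0 and 8.06% in smeb under chilling, beside 4.68% and 4.52% over all annotated genes with an intron, and 0.112% at 22 °C. In all, 183 of the 200 loci were in no event table and 17 were in at least 1 chilling table. Only 2 of the 200 are members, UKL3 and CLA1, and they are also the only ones listed in Col-0 alone. The other 8 Col-0 genes were listed in both genotypes, each with at least 1 identical event, and 7 were listed in smeb alone.

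In the amino acid list, 3 of 67 loci (4.48%) were listed in Col-0 and 5 (7.46%) in smeb. The Col-0 shares of this list and of the 3 that follow, from 4.48% to 6.67%, are read beside the 4.68% over all genes with an intron, and those in smeb beside 4.52%. ATP-PRT1, the entry enzyme of histidine synthesis, had the same alternative 5′ splice site of 27 nt at an FDR of 3.8e-06 in Col-0 and 1.0e-07 in smeb in the authors' deposited tables. The glutamate synthases GLU1 and GLT1, which bring ammonium into glutamate, were also listed in both. P5CS1, the enzyme that limits proline synthesis, was listed in smeb alone, with its exon 3 (104 nt) as a cassette (FDR 0.00133, the authors' deposited table), and so was MTO1, cystathionine gamma-synthase of methionine synthesis. In the nucleotide list, 2 of 40 loci (5%) were listed in Col-0, UKL3 and THY-2, a dihydrofolate reductase-thymidylate synthase that was listed in smeb too, and 4 (10%) in smeb. The guanylate kinase genes GK-1 and AGK2 and the purine synthesis gene PUR5, with its intron 1 retained (FDR 0, the authors' deposited table), were listed in smeb alone. In the central carbon list, 3 of 63 loci (4.76%) were listed in Col-0 and 4 (6.35%) in smeb. G6PD5 of the pentose phosphate pathway and PGI1, the plastid phosphoglucose isomerase, were listed in both genotypes, and FBA1, an aldolase, and GPDHC1, a glycerol-3-phosphate dehydrogenase, in smeb alone. In the ketone and quinone list of 30 loci, OPR3 of jasmonate synthesis and AAO3 of abscisic acid synthesis were listed in both (6.67%).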

How the data were processed

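RNA-seq of 12 seedling libraries in 6 groups of 2 was trimmed with Trimmomatic 0.32 and aligned with TopHat2 2.0.13, tools named with the build TAIR10 per the submitters' processing notes. For the event caller, its filters and the handling of strand and alleles, the entry is: not given in the sources used here. Analysed were p-values, headed adjusted P value, and FDR values (q-values) per event, and p-values, adjusted p and q-values per ontology term, as the authors deposited them in 7 tables; the GO ratio columns that the authors deposited give genes per term. No column has a count, level, size or sample, so depth and its precision are unknown, no test was run, and no interval could be given.

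The members and gene lists were chosen with earlier results of these data known. All members are named, grouped by role; sequences of the first 12 annotated events of at most 300 nt in the order of FDR are shown, and those of QPT, COAD, AT5G03430, CLA1, Tudor2 and UKL3 were chosen after their values were seen. Positions were compared with the RefSeq annotation of TAIR10.1 (24197 genes with an intron). Of 425 distinct retained introns in the chilling tables, 327 match an annotated intron once 1 base is taken off each end. The listed interval of alternative sites is 1 base longer than the stretch between them. Reading frames follow the transcript with the longest coding sequence. Numbers of tested events were recovered from the p-values and FDR that the authors deposited, as the number that makes ranks whole (tolerance 0.001; 85.3% of pairs in Col-0, 88.5% in smeb, 87.0% at 22 °C). Gene lists were matched by symbol, leaving out 3 loci whose symbol names another gene. The scripts (Python 3.11.15, numpy 2.4.6, scipy 1.17.1, matplotlib 3.10.9) were tested on simulated data. Alternatives were stricter FDR limits, ontology terms left out, 1 event per gene, events inside the gene, other reference transcripts and another comparison set.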

Additional observations from a re-analysis of the deposited data

How the results depend on the processing

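No paired analysis was possible because the deposited tables hold no value per library; for the same reason no replicate could be left out. Of 31 alternatives, 22 stayed close to the reported value, 9 moved it and 0 reversed it. The moves followed mainly from fewer events. Without the amino acid term the members were 19 in place of 30. At an FDR under 0.01 and under 0.001, their events were 10 and 5 in place of 31, the alternative splice sites 50% (5 of 10) and 40% (2 of 5) in place of 67.7%, and the early stops 50% (2 of 4) and 50% (1 of 2) in place of 76.5%. The share of annotated retained introns was 100% (1 of 1) at an FDR under 0.001 in place of 60%. The difference in median introns was 8 against all protein-coding genes with an intron, in place of 4 against the other SmEb-dependent genes. Reading frames on the first transcript by name gave early stops in 68.8% (11 of 16), and leaving out AT2G02770 and MS3, whose gene is uncertain, gave 29 events, both chosen after seeing the data. Without counts per library, neither the size of a change nor the error behind a call is known, and an event missing from a table may not have been tested.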
